A study of Mus musculus with 3 samples.

Results

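The insulin-like growth factor (IGF) genes described here are 9 mouse genes: the ligand gene Igf1, its receptor gene Igf1r, and the binding protein genes Igfbp1 to Igfbp7. All probes whose RefSeq accession the naming table gives to a member were taken, whatever their signal, which gave 13 probes for 8 of the 9 genes among 41171 probes on the array. The same naming covered 27815 probes and 18951 genes in all. Igfbp6, whose product prefers IGF-II, was matched by no probe in this way and was not analysed here. An accession outside the table was not used, and 1 such probe may read a further Igf1 transcript.

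Total RNA of 3 cultures from ICR mice was hybridised to 1 one-colour array each, to compare fibroblasts given transcription factors with cultured thyroid cells. In the 7-factor culture, embryonic fibroblasts from E13.5 embryos carried retroviruses for the thyroid factors Pax8, Nkx2-1 and Foxe1 and for the pluripotency factors Oct3/4, Sox2, Klf4 and c-Myc. The 8-factor culture received these and Hhex, a transcription factor also needed by the thyroid bud. Both induced cultures were labelled 21 days and had spent 1 week in serum medium and then 2 weeks in medium with N2 and B27 supplements, 1 U/mL thyroid stimulating hormone (TSH) and 1 µg/mL potassium iodide. The primary culture held thyroid follicular cells of adult mice after 1 week in that second medium. The factors came from retroviruses and the RNA from whole cultures, and none of the 3 arrays measured uninfected fibroblasts. Age, tissue of origin and time in culture therefore differ between the induced and primary cultures along with the factors.

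IGF-I, the product of Igf1, is a secreted peptide that activates the receptor tyrosine kinase encoded by Igf1r, which signals through insulin receptor substrates to phosphoinositide 3-kinase (PI3K) and Akt. The binding proteins hold IGFs in the fluid around cells and in serum, where they prolong the life of the peptide and limit its access to the receptor until a protease cuts them. In the thyroid, IGF-I acts together with TSH on the growth of follicular cells, and cultured fibroblasts are known to secrete both IGFs and several binding proteins.

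Levels are given as log2 signal minus the array's 75th percentile, so that 0 is the brightness that 75% of its probes do not exceed. Differences are log2 values of 1 culture minus another. With 1 array per group they have no replicate check and no p-value. The error given as ± is the scanner software's error of the spot reading, which does not cover the culture or the hybridisation. A 2-fold difference is called higher or lower. The 75th percentile signal was 2190 in the 7-factor, 2535 in the 8-factor and 504 in the primary array, and 78.2%, 78.2% and 64.2% of probes were well above background. No spot was saturated. The induced arrays shared slide 1 and scan 1, the primary array was on slide 2 in scan 2, and slide and culture type cannot be told apart.

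The cultures also differed in markers of their cells. The 11 thyroid markers with a probe were all at least 2-fold lower in each induced culture, although Foxe1 in the 8-factor culture, a delivered factor, turned above 0 without scaling and with scaling to the spike-in probes, and Tshr with the latter. Their summed signal was 1.90 and 2.36 times the 75th percentile in the 7-factor and 8-factor cultures against 523 in primary cells. The background mark was missed by Slc5a5 and Iyd in the 7-factor culture and by Pax8 and Iyd in the 8-factor culture. Pax8 and Nkx2-1 were also delivered, and whether the probes of the delivered factors read the viral transcripts was not tested. RNA of whole cultures does not show whether some of the cells were thyroid-like. The 12 fibroblast and mesenchyme markers were well above background on every array and summed to 387, 255 and 118, with 10 higher and 0 lower in the 7-factor and 9 higher and 0 lower in the 8-factor culture. The 9 macrophage markers summed to 0.906, 0.800 and 78.4, and all 9 were lower in both induced cultures. C1qa missed the background mark with 8 factors. What the makeup of the cultures contributes to the IGF differences was not tested, and in RNA from whole cultures fewer expressing cells and less RNA per cell cannot be told apart.

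Of the 7 IGF members that could be compared, 5 were at least 2-fold higher and 0 lower with 7 factors than in primary cells: Igf1, Igf1r, Igfbp3, Igfbp4 and Igfbp5. Of all 16152 genes compared, 19.1% were higher and 27.1% lower. In the 8-factor culture 5 members were higher and 0 lower, namely Igf1, Igfbp2, Igfbp3, Igfbp4 and Igfbp5, against 17.8% higher and 27.5% lower of 16161 genes. The median difference of the members was 2.10 and 1.13, and that of all genes 0 in both comparisons. With 7 factors 7274 of all genes lay above 0 and 7703 below, and with 8 factors 7097 and 7888. The median of all genes falls among genes near background whose bound was set to 0, whereas the 7 members were measured on every array. The comparisons with primary cells share the primary array.

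Igfbp1 and Igfbp3 are next to each other on chromosome 11, which also carries Igfbp4, and Igfbp2 and Igfbp5 are next to each other on chromosome 1. The 250 bases before the start of 4 binding protein genes are given here, since Igfbp1 and Igfbp3 are neighbours that differed in signal and Igfbp4 and Igfbp5 stood higher in both induced cultures. The windows are from RefSeq on GRCm38.p6, read along the gene's strand: Igfbp1 from chr11:7197537-7197786 (plus), Igfbp3 from chr11:7213924-7214173 (minus), Igfbp4 from chr11:99040994-99041243 (plus) and Igfbp5 from chr1:72874866-72875115 (minus). Capitals mark a match to 1 of 3 motifs searched on both strands. These were TATAAA, the core of a TATA box, GGGCGG, a GC box, and CAAAACA, the core of the insulin response element. No match of one lay over a match of another in these windows.
Igfbp1: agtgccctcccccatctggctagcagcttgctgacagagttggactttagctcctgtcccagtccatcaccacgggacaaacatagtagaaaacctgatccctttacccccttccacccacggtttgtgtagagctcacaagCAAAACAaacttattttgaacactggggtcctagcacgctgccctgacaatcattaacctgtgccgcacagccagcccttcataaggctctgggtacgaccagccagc
Igfbp3: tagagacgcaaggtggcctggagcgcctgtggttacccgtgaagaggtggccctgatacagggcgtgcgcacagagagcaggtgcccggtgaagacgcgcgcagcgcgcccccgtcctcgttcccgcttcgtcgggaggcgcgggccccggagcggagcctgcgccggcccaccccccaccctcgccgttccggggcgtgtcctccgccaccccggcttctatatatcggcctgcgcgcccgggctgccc
Igfbp4: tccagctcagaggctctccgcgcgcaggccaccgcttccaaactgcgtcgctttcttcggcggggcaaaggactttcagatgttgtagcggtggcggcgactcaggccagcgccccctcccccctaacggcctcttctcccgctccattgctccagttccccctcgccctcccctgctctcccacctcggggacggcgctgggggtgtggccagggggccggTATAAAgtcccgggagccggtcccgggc
Igfbp5: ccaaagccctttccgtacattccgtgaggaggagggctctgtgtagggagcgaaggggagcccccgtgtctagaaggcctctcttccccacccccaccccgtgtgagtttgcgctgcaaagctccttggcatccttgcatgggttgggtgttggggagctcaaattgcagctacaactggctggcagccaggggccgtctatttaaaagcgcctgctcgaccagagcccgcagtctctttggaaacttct
TATAAA was found in Igfbp4, beginning 28 bases before the start, and CAAAACA in Igfbp1, while the letters searched are not in the windows of Igfbp3 and Igfbp5. Among 32851 mouse promoter windows of this length, TATAAA is in 12.4%, GGGCGG in 32.7% and CAAAACA in 5.56%. The windows hold 5 CpG in Igfbp1, 32 in Igfbp3, 22 in Igfbp4 and 10 in Igfbp5, against a median of 6.

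Igf1, the ligand, was brighter in both induced cultures than in primary cells on both of the probes named for it. Probe A_51_P147942, printed 10 times per array, gave 2.28 in the 7-factor culture, 1.44 in the 8-factor culture and -0.18 in primary cells. Its 10 spots ranged from 2.20 to 2.35, from 1.39 to 1.53 and from -0.39 to -0.10. Spots of 1 array share the RNA and are not replicates. The differences from primary cells were 2.46 ± 0.20 (5.52-fold) and 1.62 ± 0.20 (3.08-fold). The probe A_52_P351116 gave 0.95, 0.32 and -3.67, and its differences were 4.61 ± 0.24 and 3.98 ± 0.24. The probes give the same order of cultures but unlike sizes, and under another background correction (normexp) the second probe's differences were 3.24 and 2.72.

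Igf1r, the receptor, was 2.80-fold higher in the 7-factor culture by its brightest probe and 1.63-fold in the 8-factor culture, which is short of the 2-fold mark. That probe, A_51_P474538, gave 2.25, 1.47 and 0.76 in the 7-factor, 8-factor and primary cultures. The differences from primary cells were 1.49 ± 0.20 and 0.71 ± 0.20. The probe A_51_P318365 gave 1.49, 0.88 and 0.63, with differences of 0.86 and 0.25. The third probe, A_52_P634111, gave -2.52, -2.93 and -2.90, with differences of 0.39 and -0.02. The third probe's difference for the 7-factor culture turned to -0.59 under normexp, and that for the 8-factor culture was above 0 without scaling and with scaling to the median, the spike-in probes or by quantiles. The call of Igf1r thus rests on 1 of its 3 probes.

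**Figure D1:**
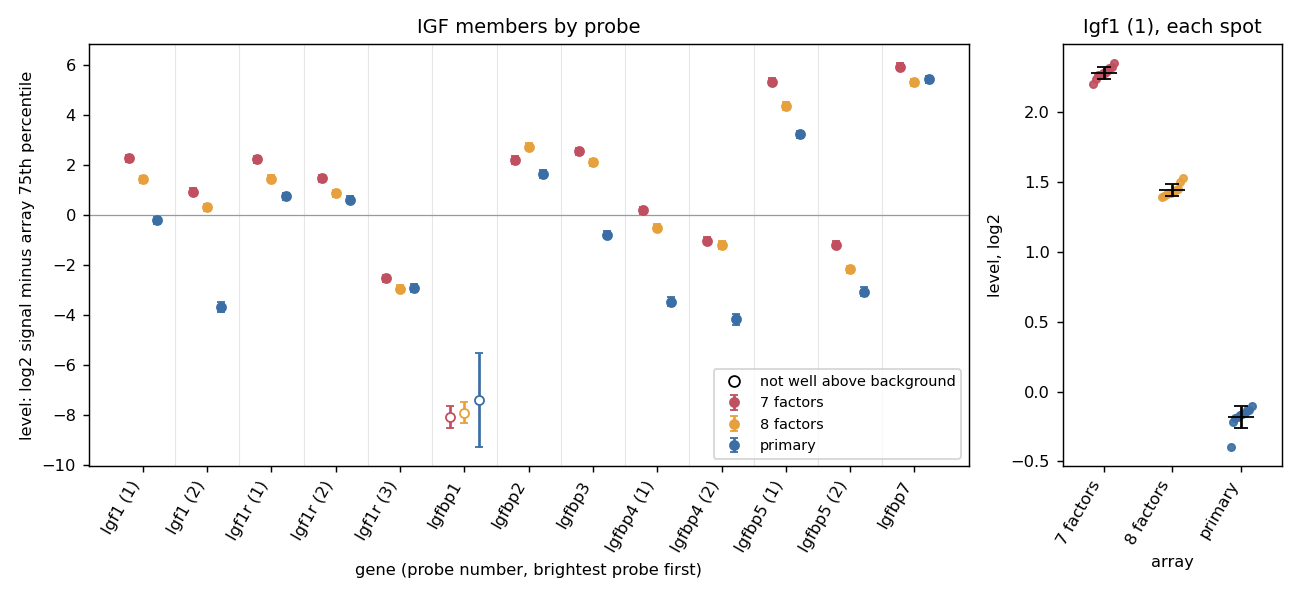
Level of each IGF probe (log2 signal relative to the 75th percentile of its array, vertical axis) on the 7-factor, 8-factor and primary arrays, 1 array per group, with the probes of a gene numbered from the brightest and bars for the scanner error; open points are not well above background, and the right panel shows the 10 spots of the first Igf1 probe on each array with their mean and SD. Igfbp3 and both Igfbp4 probes stand well apart from their primary level (2.57 and 2.13 against -0.78 for Igfbp3), Igfbp7 lies within 5.33 to 5.95, and Igfbp1 is open on every array.

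Among the binding proteins, Igfbp3 and Igfbp4 stood furthest above primary cells. Igfbp3, the main carrier of IGFs in serum, had 1 probe (A_52_P253179) with levels of 2.57 in the 7-factor, 2.13 in the 8-factor and -0.78 in the primary culture. The differences were 3.34 ± 0.20 (10.2-fold) and 2.91 ± 0.20 (7.51-fold). Of all genes compared, 2.22% and 2.71% had a difference that high or higher. Both induced arrays lay far above the primary one and close to each other.

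Igfbp4, a binding protein known mainly as an inhibitor of IGF action and a substrate of the protease Pappa, was higher on both probes. The probe A_52_P257502 gave 0.21, -0.49 and -3.46, and its differences from primary cells were 3.67 ± 0.23 (12.7-fold) and 2.97 ± 0.23 (7.85-fold). The probe A_51_P398971 gave -1.01, -1.18 and -4.16, with differences of 3.15 ± 0.26 and 2.98 ± 0.26. The sizes rest on a dim primary signal. Under normexp they were 2.15 and 1.42 for the first probe and 1.30 and 0.97 for the second, and with a floor at 25% of the 75th percentile 2.21 and 1.51 for the first and 0.99 and 0.82 for the second, which falls short of 2-fold.

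Igfbp5, a binding protein that also binds extracellular matrix, had levels of 5.34, 4.38 and 3.25 on the probe A_52_P281702. The 7-factor culture was 2.10 ± 0.20 above primary cells (4.27-fold) and the 8-factor culture 1.13 ± 0.20 (2.19-fold). The second probe, A_51_P204153, gave -1.17, -2.16 and -3.05. Its differences were 1.87 ± 0.22 and 0.88 ± 0.22, and under normexp they were 0.68 and -0.36, so that the 7-factor value lost its call and the 8-factor value turned. With the floor the 7-factor value was 0.83. The cultures have the same order on both probes, with the 8-factor culture between the others.

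Igfbp2, a binding protein of fetal tissues and serum, differed from the other members in its order, with the 8-factor culture highest. Its probe A_51_P423308 gave 2.22 in the 7-factor, 2.75 in the 8-factor and 1.65 in the primary culture. The differences from primary cells were 0.56 ± 0.20 (1.48-fold) and 1.096 ± 0.20 (2.14-fold), the latter just past the 2-fold mark. Without scaling and with scaling to the spike-in probes both passed it.

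Igfbp7, a relative that binds IGFs weakly and is found in basement membranes, was bright and nearly level. Its probe A_51_P472292 gave 5.95, 5.33 and 5.45. The 7-factor culture was 0.50 ± 0.20 above primary cells. The 8-factor culture gave -0.12 ± 0.20, less than the scanner error, and this sign turned under normexp (0.20), quantile normalization (0.35), scaling to the median (0.12), scaling to the spike-in probes (3.13) and no scaling (2.21).

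Igfbp1, a liver protein whose gene insulin represses, was not well above background on any array. Its probe A_51_P447545 had processed signals of 8.13, 10.7 and 3.03, and no fold is given. Its neighbour Igfbp3 was well above background on all 3 arrays, as were the 12 probes of the other members. Of the 7 hepatocyte markers, 5 were well above background in each induced culture and 2 in primary cells. They summed to 5.14, 8.76 and 0.851. Of the 5 compared, 2 were higher and 2 lower with 7 factors, and 1 was higher and 2 lower with 8 factors. The lowest level well above background was -7.78 on the 7-factor, -7.91 on the 8-factor and -5.15 on the primary array.

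**Figure D2:**
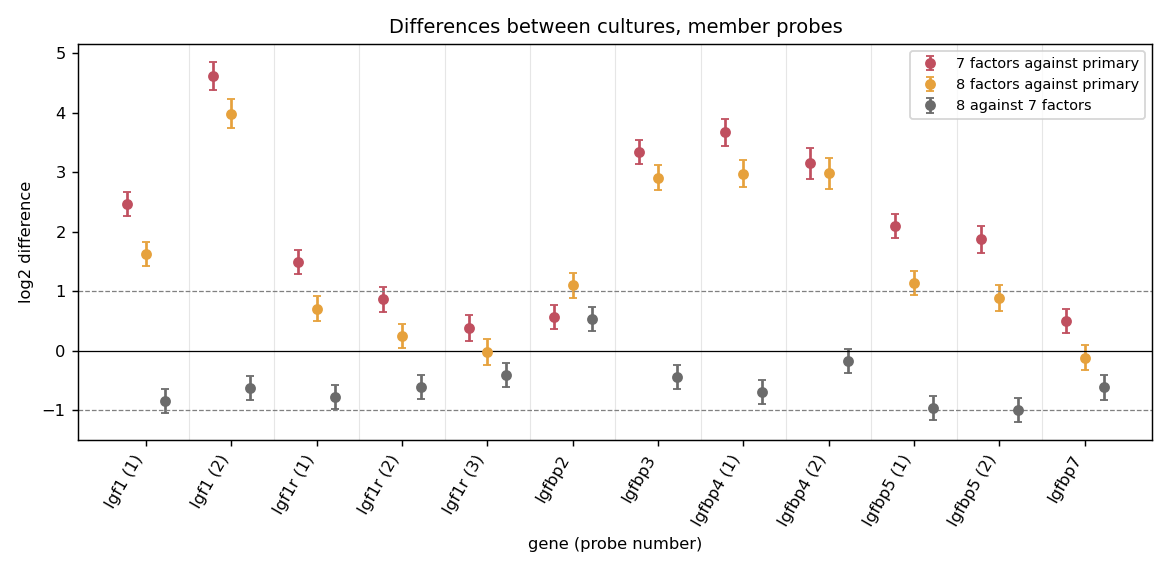
Log2 difference (vertical axis) of each compared IGF probe from primary cells for the 7-factor and 8-factor cultures and between the induced cultures. Each group had 1 array, bars are the scanner error and dashed lines lie at 2-fold. In the comparison with primary cells 8 of 12 probes lie past 2-fold for the 7-factor and 7 of 12 for the 8-factor culture, against 18.1% and 17.2% of all named probes; the 8-factor against 7-factor points all lie inside the lines and 11 of 12 below 0, a direction that turns for all 11 with scaling to the spike-in probes.

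Adding Hhex to the factors went with few 2-fold differences over the whole array. Of 16260 genes, 4.54% were higher and 4.04% lower in the 8-factor than in the 7-factor culture. None of the 7 members differed 2-fold between these cultures. None of the 12 member probes did either, beside 5.70% of all named probes higher and 4.36% lower. With shares this small over all genes and probes, these counts do not set the members apart. Of the 7 members, 6 had a lower signal in the 8-factor culture with scaling to the 75th percentile, and all 6 turned above 0 with scaling to the spike-in probes. The median of the members was -0.70 and that of all genes -0.09, and 57.4% of all genes lay below 0. Scaling to the spike-in probes moved the median of all genes to 0.93 and that of the members to 0.32.

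Igfbp5 differed most, by -0.96 ± 0.20 (1.95-fold) on its brightest probe and -0.99 on the other, and with scaling to the spike-in probes the values were 0.06 and 0.03. The values for Igf1 were -0.84 and -0.63, and with spike-in scaling 0.18 and 0.39. Igf1r gave -0.78 on its brightest probe and Igfbp4 -0.70, against 0.24 and 0.32 with spike-in scaling. Igfbp7 gave -0.62 and Igfbp3 -0.44, against 0.40 and 0.58 with spike-in scaling. Igfbp2 was the exception at 0.53 ± 0.20 (1.45-fold), and it stood above 0 under every scaling tried. Of the 12 fibroblast markers, 9 lay below 0 in this comparison, with a median of -0.63, beside 57.4% of all genes below 0. With spike-in scaling 11 of the 12 lay above 0. That scaling moves every measured value of this comparison by the same amount, so a shared turn of markers and members carries no information. The 8 smooth muscle and pericyte markers lay above 0, 5 of them past 2-fold, with summed signals of 50.6 in the 7-factor, 112 in the 8-factor and 75.7 in the primary culture. The part of either set of markers in the IGF values was not tested.

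**Figure D3:**
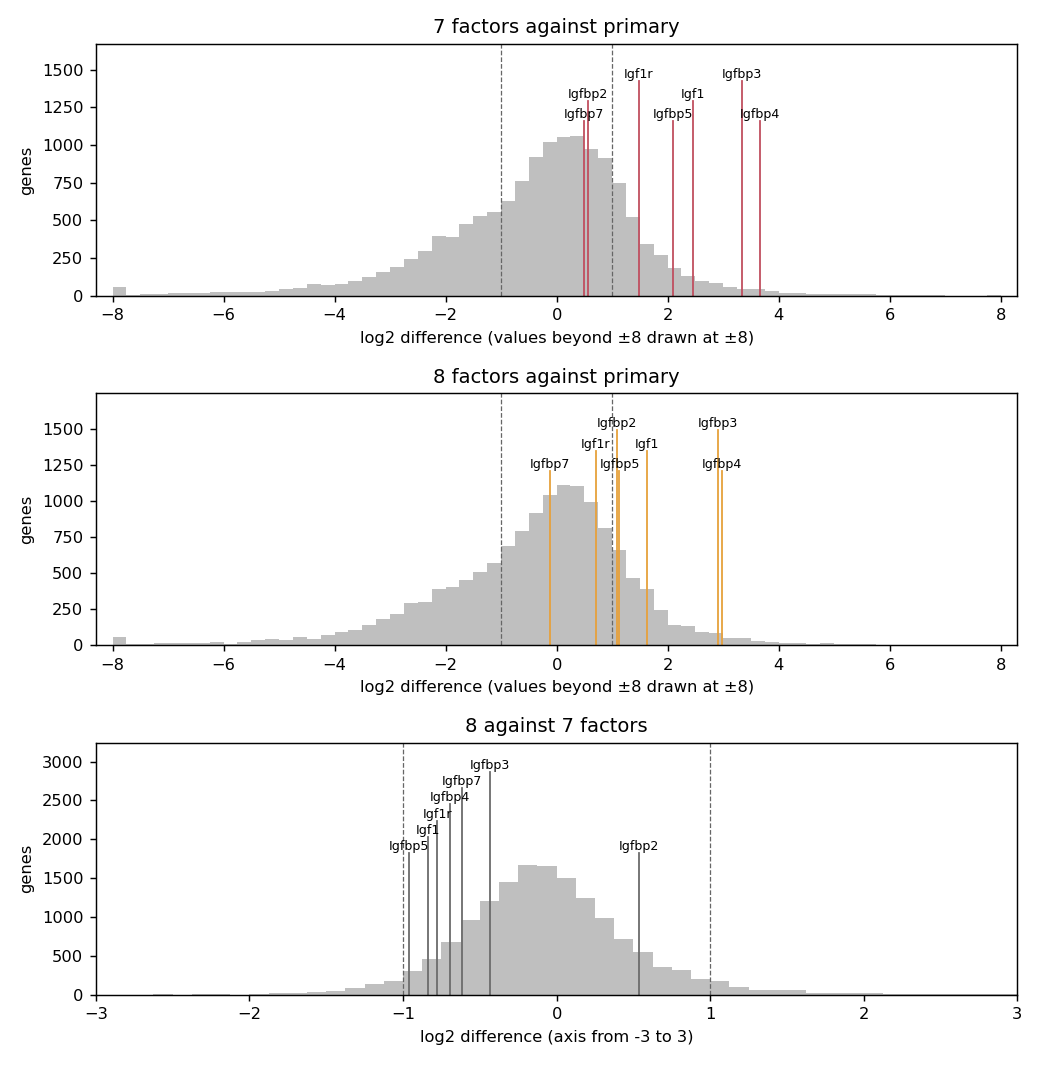
Number of genes (vertical axis) by log2 difference (horizontal axis) in the 3 comparisons, with the compared IGF members as labelled lines and dashed lines at 2-fold; the bottom panel has a narrower axis. Igfbp3 and Igfbp4 lie in the upper tail of both comparisons with primary cells, and in the comparison of 8 with 7 factors 6 of 7 members lie below 0, which turns with scaling to the spike-in probes.

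Other genes of the pathway are given by list, each with the value of its brightest probe. The counts of every list stand beside 19.1% of all genes higher and 27.1% lower in the 7-factor culture. For the 8-factor culture these shares are 17.8% and 27.5%. The largest difference was in the other ligand. Igf2, which encodes the fetal growth factor IGF-II, had levels of 5.07, 4.80 and -3.33, a difference from primary cells of 8.40 in the 7-factor and 8.13 in the 8-factor culture. Of the 5 compared genes for ligands and other receptors, 2 were higher and 1 lower in each induced culture, with medians of 0.96 and 0.55. Insr, the insulin receptor, was higher by 1.37 and 1.79 on the brightest probe, and the second probe gave a bound of 0. Insrr, a receptor related to Insr, was lower, at -1.69 and -2.23, but turned above 0 without scaling and with scaling to the spike-in probes. Igf2r, which clears IGF-II from the cell surface, gave 0.96 and 0.55.

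Genes for proteins that hold or cut the binding proteins went both ways, as did the genes of the whole array (19.1% higher and 27.1% lower with 7 factors). Of 14 compared genes for the ternary complex, proteases and their inhibitors, 2 were higher and 5 lower in each induced culture, with medians of -0.39 and -0.21. Unscaled arrays gave 10 higher and 2 lower for the 7-factor culture, beside 69.4% of all genes higher and 7.06% lower. Pappa, the protease that cuts Igfbp4, was higher by 3.38 and 3.51. Igfals, the partner of Igfbp3 in the serum complex, was lower, at -4.53 and -4.75. The protease genes Plau (-3.26 and -3.86) and Ctsd (-2.31 and -2.54) were lower as well, though with spike-in scaling Ctsd turned to 0.70 in the 8-factor culture. Among 9 relatives of the binding proteins, 4 were higher and 2 lower in the 7-factor culture and 5 higher and 2 lower in the 8-factor culture, with medians of 0.57 and 1.29. Ccn5 (5.55 and 5.03) and Ccn3 (3.79 and 3.82), secreted proteins with an IGF binding protein-like module, were higher. Ccn2 (-2.43 and -2.59), of the same family, and Esm1 (-6.55 and -4.57), a proteoglycan of endothelial cells, were lower, but with spike-in scaling Ccn2 turned to 0.65 in the 8-factor culture. The 10 endothelial markers summed to 3.28, 3.61 and 6.36. Pecam1, Tie1 and Robo4 were not well above background in the induced cultures, and Tek was not in primary cells. Of the 10, 1 was higher and 6 lower with 7 factors, and 1 was higher and 8 lower with 8 factors.

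Downstream of the receptor, genes also went both ways, as did the genes of the whole array. Of all genes, 19.1% were higher and 27.1% lower with 7 factors, and 17.8% and 27.5% with 8 factors. Of 12 compared adaptors and inhibitors at the receptor, 5 were higher and 2 lower in the 7-factor and 4 higher and 2 lower in the 8-factor culture, with medians of 0.10 and -0.01. Irs1, the docking protein between receptor and PI3K, was higher by 3.85 and 3.66. Grb10, an inhibitor of the receptor, was higher by 2.22 and 1.71, and its other probes gave 1.56 and 2.07 for the 7-factor but 0.62 and 3.70 for the 8-factor culture. Gigyf1, a Grb10 partner, was lower, at -2.49 and -3.04, the latter turning to 0.20 with spike-in scaling. Its other probes gave -1.88 and -2.52 for the 7-factor and -1.48 and -0.64 for the 8-factor culture. Of 25 PI3K, Akt and FoxO genes, 4 were higher and 3 lower in the 7-factor and 3 higher and 4 lower in the 8-factor culture, with medians of 0.23 and 0.17. Unscaled arrays gave 11 of the 12 adaptors and 22 of the 25 PI3K, Akt and FoxO genes as higher with 7 factors. Of all genes, 69.4% were then higher. Pik3cd, a PI3K subunit of white blood cells, was lower, at -5.51 and -5.12, beside the lower macrophage markers. Rictor, a subunit of mTOR complex 2, was higher by 2.29 and 1.63, and its 1 other probe that was well above background in primary cells gave 0.74 and 0.92. Pik3r3, a regulatory subunit of PI3K, was higher by 1.33 and 1.62, while its other probes were under 2-fold.

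Growth hormone signalling controls Igf1 in the liver. Of its 8 genes, 1 was higher and 3 lower in each induced culture, with medians of -0.09 and -0.12. Ghr, the growth hormone receptor, was higher by 2.40 and 2.80. Of the feedback inhibitors, Socs3 gave 0.35 and -0.005, under 2-fold, and the others were lower, with Socs1 at -2.96 and -2.24, Socs2 at -2.30 and -1.44 and Cish at -1.97 and -1.68, but without scaling and with spike-in scaling these 3 turned above 0 in the 8-factor culture and Cish also in the 7-factor culture. Of 4 compared genes for IGF mRNA binding proteins and imprinted partners, 3 were higher and 0 lower, with medians of 3.28 and 3.69. Igf2bp1, which binds Igf2 mRNA in fetal tissue, was higher by 5.50 and 6.21, and Igf2bp2 by 1.06 and 1.19. Igf2bp3 missed the background mark in primary cells and stood higher by at least 6.45 and 6.19. Between the induced cultures, 1 gene of all these lists differed 2-fold on its brightest probe, Esm1, which was 1.98 higher with 8 factors. Of all genes, 4.54% were higher and 4.04% lower. Less bright probes passed 2-fold for further genes of the lists. Such probes were higher with 8 factors for Gigyf1 (1.88), Pdpk1 (1.74), Grb10 (1.63) and Rptor (1.15). They were lower for Pik3r1 (4.01-fold), Rictor (-1.48 and -1.19), Gsk3b (-1.16) and Stc1 (-1.04). With spike-in scaling 33 of the 76 compared genes of these lists were higher with 8 factors and 0 lower. That scaling called 44.3% of all genes higher and 0.24% lower.

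**Figure D4:**
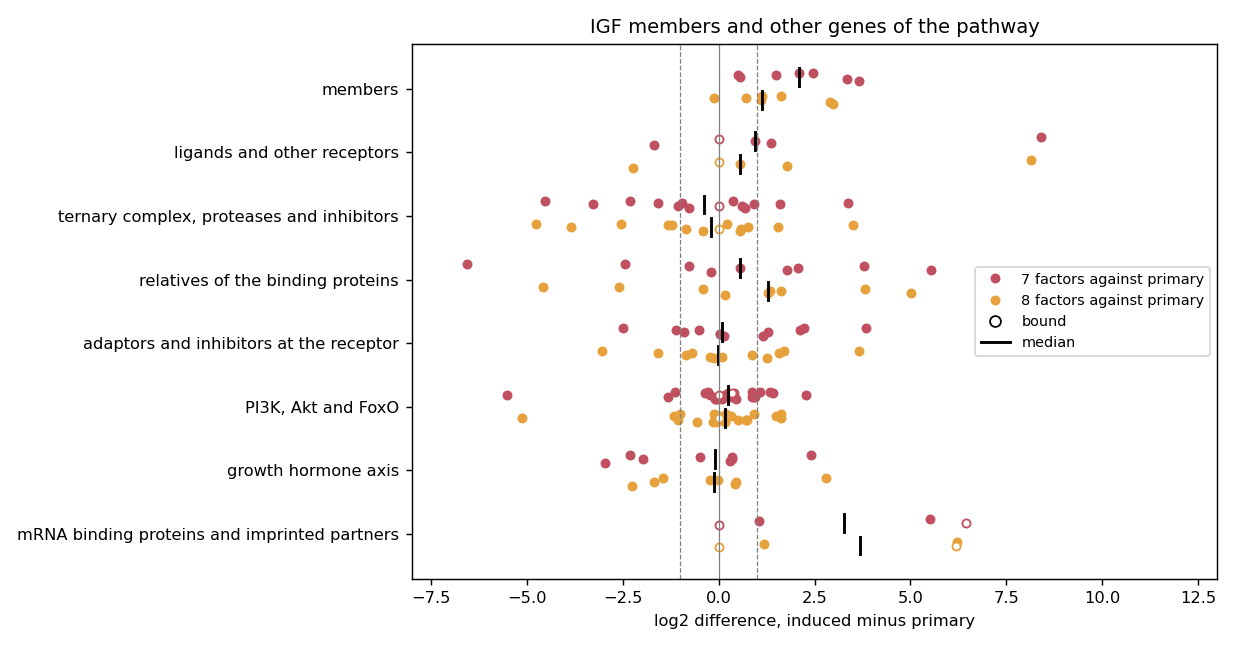
Log2 difference from primary cells (horizontal axis) of the compared genes of each list for the 7-factor and 8-factor cultures, 1 point per gene, with open points for bounds, black bars for medians and dashed lines at 2-fold. The members lie at medians of 2.10 and 1.13, Igf2 lies furthest right at 8.40 and 8.13, and PI3K, Akt and FoxO genes have medians of 0.23 and 0.17.

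The genes whose 3 values were most like a member's were found by the distance between levels centred on their mean, over 13964 other genes and 3 arrays. So few arrays leave many genes close to any member, and the likeness is a description. For Igfbp4 the nearest were Nnat, Lum and Dst (Lum is also 1 of the fibroblast markers), and for Igfbp3 they were Sox2, which is a delivered factor, Bmp7 and Pde6h. The nearest to Igf1 were Cnot3, Adamts10 and Adgrv1, and to Igf1r Zfp422, Ctc1 and Lrrc75a. Igfbp5 lay closest to Magi2, Fscn1 and Nvl, Igfbp2 to Wdhd1, Ufl1 and Dync2li1, and Igfbp7 to Mtmr3, F8a and N4bp2.

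The way the arrays are put on 1 scale bears on all values. Without scaling, 69.4% of genes were higher and 7.06% lower with 7 factors than in primary cells, and the median of all genes was 1.94. In the 8-factor culture 72.5% were higher and 6.05% lower, and the median was 2.11. All 7 members were then at least 2-fold higher in both. Spike-in scaling gave medians of all genes of 2.04 and 3.02 and called 71.2% and 85.9% of them higher, also with 7 members higher.

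**Figure D5:**
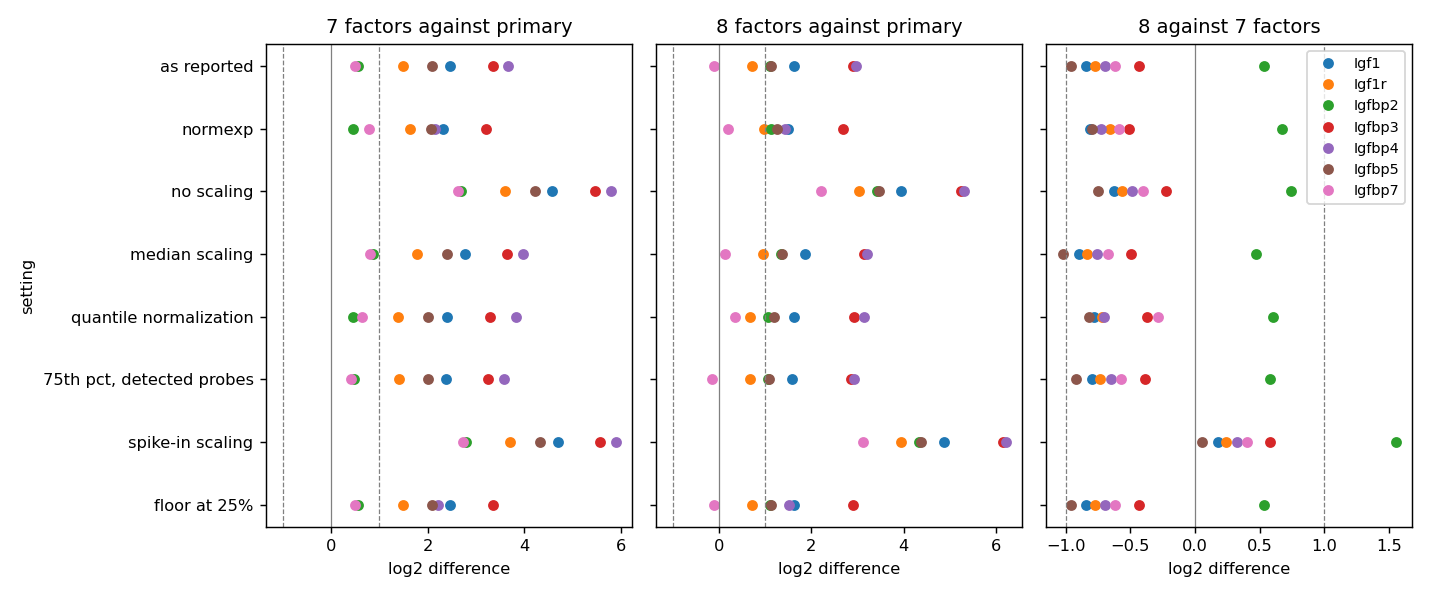
Log2 difference of each IGF member's brightest probe (horizontal axis) in the 3 comparisons under the main and the other settings for background and scaling, 1 array per group. In the comparisons with primary cells Igf1, Igf1r, Igfbp2, Igfbp3, Igfbp4 and Igfbp5 stay above 0 under every setting drawn. Igfbp7 lies on either side of 0 for the 8-factor culture, depending on the setting. In the comparison of 8 with 7 factors Igfbp2 stays above 0, and spike-in scaling moves the other 6 members from below to above 0.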

How the data were processed

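Total RNA of 3 mouse cultures, 1 array per group by the sample titles, was measured as Cy3 signal on Agilent arrays. Each deposited value is the intensity of a spot. The scanner software was Feature Extraction 11.5.1.1 per the file headers and 10.5 per the submitters' processing notes. It removed background and spatial trends to give a processed signal with its error, per the file headers. The deposited value table equals that signal, unscaled.

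Control spots and outlier spots were left out, spots of a probe were averaged as log2, and each array's 75th percentile was subtracted (Python 3.11.15, pandas 2.3.3, NumPy 2.4.6). Probes were named through RefSeq accessions in a GRCm38.p6 table, and 67.6% received a name. The grid uses mm9, per the file headers. The probe with the highest mean level represents a gene. A gene well above background on 1 array only has a bound, taken against the lowest signal well above background on the other array and set to 0 where that pointed the wrong way. Genes whose brightest probe was below the mark while another was above were left out.

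Per list and comparison, up to 4 genes with the largest differences could be named. The members and lists were chosen with earlier results of these data known. With 1 array per group no test was made. The calculation was tested on simulated data. Alternatives were normexp (limma 3.58.1, R 4.3.3, offset 50, on the median spot signal), other scalings, a floor, mean over probes and folds of 1.5 and 3. One marker gene is not reported here by name.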

Additional observations from a re-analysis of the deposited data

How the results depend on the processing

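Of 60 counts of members under the alternatives, 56 stayed within 1.5 times the count reported. Many of these were counts of 0 that stayed 0, among them all counts of members lower than in primary cells. For such counts the ratio says nothing about how stable the calls are. Between the induced cultures, scaling to the median left 1 member lower (Igfbp5, at -1.02) in place of 0, beside 4.93% of all genes. Scaling to the spike-in probes left 1 member higher (Igfbp2, at 1.55) in place of 0, beside 44.3% of all genes. A 1.5-fold threshold left 5 members lower, beside 15.4% of all genes. Against primary cells, a 3-fold threshold left 3 members higher with 8 factors, beside 9.19% of all genes. In the 7-factor culture, the mean over probes and a 3-fold threshold each gave 4 higher members, beside 16.1% and 9.85% of all genes. Of the values of single probes, 119 moved by more than the scanner error and 129 did not, and no probe past 2-fold changed sign. The cause of these shifts was not tested. No paired analysis was possible because each group holds 1 array. The number of arrays limits precision, and the dim primary signals of Igfbp4 and of the second Igf1 probe limit their sizes.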
